A study of Mus musculus with 5 samples.

Results

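The BCL2 family sets whether a cell's mitochondria stay sealed or release their contents and start apoptosis, and 10 of its genes in mouse dendritic cells are described here. They were chosen by name, and a region belonged to a gene when the authors' lists assigned it to that gene or when its nearest edge lay within 5 kb of the gene's listed transcription start. The 10 genes are among 14157 protein-coding genes with a listed start, called scored genes here. A start was listed only where the authors' lists named the gene for a region. Genes named for no region in any list are therefore outside the shares of scored genes given below. The genes were Bcl2, Bcl2l1, Mcl1 and Bcl2a1a, which protect the cell, Bax and Bak1, which form the pore, and Bcl2l11, Bid, Bbc3 and Pmaip1, the BH3-only genes that start the process. Together they held 12 STAT3 regions in SAHA and 5 in diluent, and 34 H3K4me3 regions in SAHA and 20 in diluent.

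Survival proteins of the family bind the BH3-only proteins and hold Bax and Bak in check, and a cell dies when BH3-only proteins outnumber the binding sites. STAT3 is a transcription factor that cytokine receptors activate, and it is known in several cell types to bind at genes for survival proteins, including Bcl2l1 and Mcl1. H3K4me3 is trimethylation of lysine 4 of histone H3 and marks the start sites of genes that are active or poised. SAHA (vorinostat) inhibits histone deacetylases, and such inhibitors are known to alter BH3-only genes in tumour cells. Dendritic cells are short-lived antigen-presenting cells, and the balance of Bcl2 and Bcl2l11 is known to bear on their life span.

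Chromatin immunoprecipitation sequencing gave 5 libraries, 1 per group. The groups were STAT3 in SAHA cells, STAT3 in diluent cells, H3K4me3 in SAHA cells, H3K4me3 in diluent cells and rabbit IgG in diluent cells. All came from bone marrow of C57BL/6 females aged 10 weeks that was grown for 7 days with 10 ng/mL of GM-CSF and 10 ng/mL of IL-4. CD11c-positive cells were selected to a stated purity of 95%, and the purified cells then received SAHA, at a dose labelled 500 nm, or diluent for 12 hours. No IgG library of SAHA cells was used here, so 1 control from diluent cells stood behind both conditions, and the labels do not say how many animals went into a library. With 1 library per group no difference between SAHA and diluent has a replicate check, and every comparison below is between 2 libraries.

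Filtered tags numbered 17810183 for STAT3 in SAHA, 25013431 for STAT3 in diluent, 21428355 for H3K4me3 in SAHA, 22420200 for H3K4me3 in diluent and 18925827 for IgG. The lists held 8552 STAT3 regions in SAHA and 3507 in diluent, so the longer STAT3 list came from the library with fewer tags. H3K4me3 stood within 5 kb of the start of 8 of 8 scored dendritic cell markers, 6 of 6 macrophage and monocyte markers and 4 of 4 scored granulocyte and mast cell markers in both libraries. It stood at 1 of 2 scored T cell markers, 0 of 2 scored B cell markers, 0 of 1 scored NK cell markers and 1 of 1 scored erythroid markers, again in both. Markers that no list named were not scored, which makes these shares higher. The markers looked for numbered 5 granulocyte and mast cell, 4 T cell, 3 B cell, 2 NK cell and 3 erythroid genes. Elane, a neutrophil protease gene, had 136 H3K4me3 tags at its start in SAHA and 33 in diluent, and the median log2 tag ratio of SAHA over diluent was 0.45 over the 4 granulocyte and mast cell markers, -0.01 over the 6 macrophage and monocyte markers and 0.21 over 6 dendritic cell markers. The dendritic cell markers went both ways, with Ciita at 1.18, Itgax at -0.38 and Flt3 at -0.56, and the macrophage marker Mertk was at -0.65. A change in the mix of cells and a change in the mark per cell cannot be told apart in these libraries, and the part of the granulocyte values in the results below was not tested.

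STAT3 regions were listed at the BH3-only genes Bid and Pmaip1 in SAHA and at the survival gene Bcl2a1a in diluent, counting those within 5 kb of a start. The 2 members in SAHA stand against 18.3% of all scored genes with such a region in that list. The 1 member in diluent stands against 6.39% of all scored genes. By role, 2 of 4 BH3-only genes, 0 of 4 survival genes and 0 of 2 pore genes had a region within 5 kb in SAHA. In diluent the counts were 0 of 4 BH3-only genes, 1 of 4 survival genes and 0 of 2 pore genes. These role counts hold for the 10 genes alone, and the SAHA region of Pmaip1 scored 30.1 where the list's lowest score is 30. Outside the 10, SAHA regions within 5 kb stood at the survival gene Bcl2l2 and at Bcl2a1b and Bcl2a1d, copies of Bcl2a1a. Another stood at Hrk, a BH3-only gene. Bcl2l1, Bax, Bak1 and Bbc3 had no STAT3 region within 5 kb and none named for them in either list. The SAHA region nearest to the start lay 19.1 kb away at Bcl2l1, 23.6 kb at Bbc3, 25.1 kb at Bax and 38.6 kb at Bak1, each assigned to another gene.

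STAT3 regions of the family lay beyond 5 kb of a start in 9 of 12 cases in SAHA and 4 of 5 in diluent, against 66.7% of all listed STAT3 regions in SAHA and 73.7% in diluent. In SAHA 11 of the 12 regions did not overlap a diluent region, against 97.2% of all STAT3 regions in the SAHA list. In diluent 4 of the 5 did not overlap a SAHA region, against 93.3% of that list. H3K4me3 of the same condition overlapped 4 of the 12 in SAHA (27.2% of that list) and 4 of the 5 in diluent (24.9%). The lists gave 4 members more STAT3 regions in SAHA (31.5% of scored genes), 2 members fewer (9.64%) and 4 members equal numbers. The authors' score, which rises with the strength of a call and is used here only within a list, had a median of 37.2 over the family's 12 regions in SAHA (all regions 35.4) and 45.8 over its 5 in diluent (all regions 35.0). No STAT3 region of the family had a tag count in the single-library tables, so STAT3 is described by position and rank alone. No IgG region lay within 150 kb of any member's start.

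**Figure D1:**
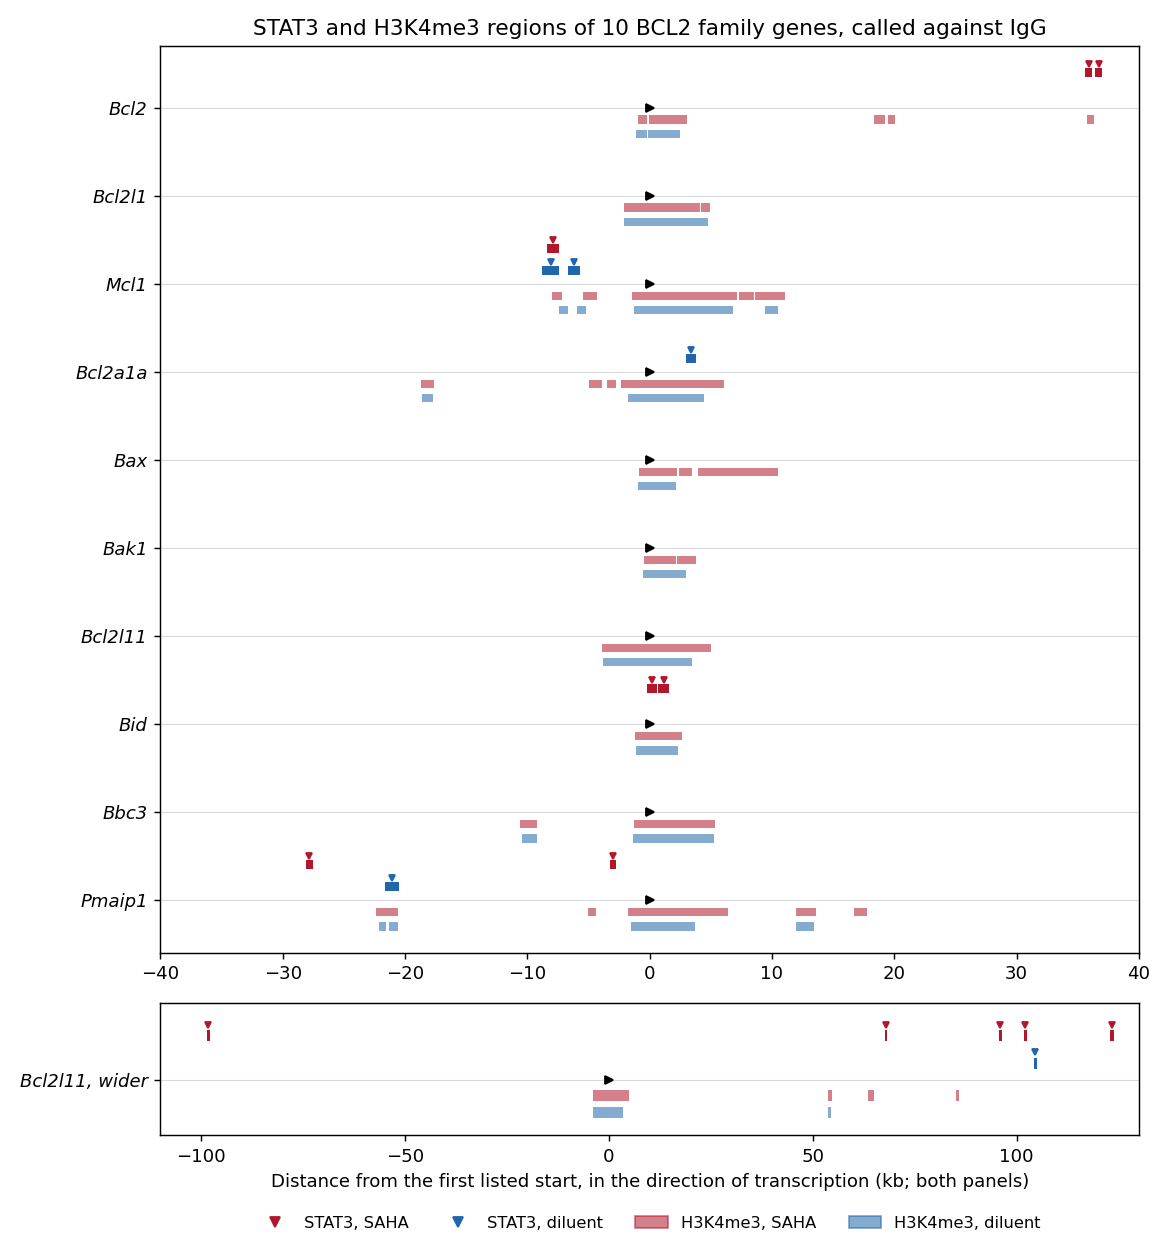
Regions listed against IgG around the first listed start of each gene, with distance in kb along the direction of transcription; the upper panel spans 40 kb each way and the lower panel shows Bcl2l11 over a wider range. Triangles with bars are STAT3 regions and pale bars are H3K4me3 regions, SAHA in red above diluent in blue; Bid has its STAT3 pair at the start in SAHA alone, and the Bax row ends with the region named for Ftl1, a neighbouring gene.

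Bid, whose protein carries the death receptor signal to mitochondria once caspases cut it, had the highest-scoring STAT3 region of the family in SAHA. That region, chr6:120865224-120866123 in mm9, was 900 bp wide, lay inside the listed transcript with its midpoint 1.17 kb past the start, and scored 71.3, rank 187 of 8552. A second SAHA region, chr6:120866212-120867091, spanned the start and scored 41.6, rank 2208. The diluent list had none, and its nearest STAT3 region was 214763 bp away. Both SAHA regions lay inside the H3K4me3 region of Bid. The RefSeq promoter of Bid, 250 bases before to 50 after the start, is shown because a SAHA STAT3 region spans the start. It lies at chr6:120916775-120917074 on the minus strand of GRCm38.p6 and was matched by symbol, since the STAT3 coordinates are of another build. CpG pairs are in capitals.
Bid: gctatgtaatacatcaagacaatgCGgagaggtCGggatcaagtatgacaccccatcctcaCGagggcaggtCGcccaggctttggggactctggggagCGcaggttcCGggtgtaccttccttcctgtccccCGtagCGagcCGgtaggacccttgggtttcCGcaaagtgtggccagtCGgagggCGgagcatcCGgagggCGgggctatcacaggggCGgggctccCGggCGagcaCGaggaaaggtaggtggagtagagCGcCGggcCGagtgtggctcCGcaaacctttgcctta
The Bid promoter held 22 CpG pairs, against a median of 7 over all 32851 RefSeq promoters. That count was not particular to Bid, since the promoters of the other members, with none found for Pmaip1, ran from 1 at Bcl2l1 to 44 at Bcl2.

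Pmaip1, a BH3-only gene known as a target of p53 and of stress signals, had 2 STAT3 regions in SAHA and 1 in diluent, at 3 different places upstream. The nearer SAHA region, chr18:66615028-66615547, lay 2.97 kb upstream of the start and scored 30.1, rank 8480 of 8552 where the lowest score in the list is 30. The farther one lay 27.8 kb upstream, with a score of 39.4. The diluent region, chr18:66596640-66597760, lay 21.1 kb upstream and scored 45.8, rank 502 of 3507. It overlapped 2 H3K4me3 regions of the diluent library, whereas neither SAHA region overlapped H3K4me3. The closest SAHA and diluent regions were 5944 bp apart.

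Bcl2l11, the BH3-only gene known for the death of lymphocytes and myeloid cells when cytokines are withdrawn, had 5 STAT3 regions in SAHA and 1 in diluent, all far from its starts. The highest-scoring, chr2:127853149-127853841, lay 98.3 kb upstream and scored 51.5, rank 885 of 8552. The other 4 SAHA regions lay 66.4, 94.5, 101 and 122 kb past the nearest start, beyond the end of the longest listed transcript. The diluent region, chr2:128056153-128056618, lay 103 kb past the start and scored 31.2. It stood 1927 bp from the nearest SAHA region and did not overlap it. None of the 6 regions overlapped H3K4me3. The lists assigned these regions to Bcl2l11, and the assignment says nothing of which gene they act on.

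Mcl1, the survival gene with a short-lived protein, was the only one of the 10 with STAT3 regions that overlapped between the conditions. The SAHA region, chr3:95454215-95455211, was 997 bp wide and lay whole within the diluent region, chr3:95453850-95455228, which was 1379 bp wide. The midpoints lay 7.93 kb upstream of the start in SAHA and 8.10 kb upstream in diluent. The diluent region ranked 60 of 3507, the highest of the family's regions in that list, with a score of 72.2. The SAHA region ranked 3384 of 8552 with a score of 37.6. A second diluent region, with a score of 36.9, lay 6.19 kb upstream and 756 bp from the SAHA region. All 3 overlapped H3K4me3 regions of the same condition, which scored 93.2 in SAHA and 76.3 and 52.7 in diluent. The lowest score in both H3K4me3 lists is 50. The wider diluent STAT3 region met its H3K4me3 region only at the edge, ending at 95455228 where the H3K4me3 region starts at 95455218.

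Bcl2a1a encodes the survival protein A1, known as an NF-kB target in myeloid cells, and its STAT3 region was in diluent. The region, chr9:88854711-88855530, lay inside the listed transcript 3.36 kb past the start and scored 61.8, rank 130 of 3507. The nearest SAHA region lay 100238 bp away, and the SAHA list named none for the gene. The mouse genome carries several near-identical A1 copies, so reads of 38 bases can be split between them, and the sources used here do not say how reads with several matches were handled. At the other copies, Bcl2a1b had a SAHA region over its start (score 55.1) and one 34.7 kb upstream (63.2), against a diluent region 1.69 kb past the start (30.5). Bcl2a1d had a SAHA region 1.53 kb upstream (35.4) and a diluent region over its start (57.6). Bcl2a1c had no SAHA region and 1 diluent region 6.30 kb past its start (55.3). Values of single A1 copies, Bcl2a1a included, are therefore uncertain. The promoters of Bcl2a1a (chr9:88956670-88956969, plus strand) and Bcl2a1d (chr9:88731801-88732100, minus strand), from RefSeq on GRCm38.p6, are shown to let the likeness be seen, with CpG pairs in capitals.
Bcl2a1a: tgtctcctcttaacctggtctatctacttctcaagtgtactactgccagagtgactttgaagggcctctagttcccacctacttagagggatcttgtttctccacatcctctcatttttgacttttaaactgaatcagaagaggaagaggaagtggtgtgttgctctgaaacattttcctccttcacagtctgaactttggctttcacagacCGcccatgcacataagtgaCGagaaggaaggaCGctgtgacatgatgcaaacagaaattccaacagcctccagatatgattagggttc
Bcl2a1d: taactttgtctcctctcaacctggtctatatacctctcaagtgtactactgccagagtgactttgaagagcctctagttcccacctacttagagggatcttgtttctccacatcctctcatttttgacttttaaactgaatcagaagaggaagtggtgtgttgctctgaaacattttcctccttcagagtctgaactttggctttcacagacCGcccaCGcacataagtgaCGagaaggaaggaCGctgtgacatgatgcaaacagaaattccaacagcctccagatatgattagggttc
They were identical at 288 of the 294 positions aligned without a gap (98.0%). Bcl2a1a and Bcl2a1b were identical at 254 of 256 such positions (99.2%), and Bcl2a1a and Bcl2a1c at 182 of 190 (95.8%), over windows whose listed starts were offset from one another. The Bcl2a1a promoter held 3 CpG pairs and that of Bcl2a1d 4.

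Bcl2, the founding survival gene, had 2 STAT3 regions in SAHA and none in diluent, both deep inside its long transcript. The higher-scoring, chr1:108574688-108575256, lay 35.9 kb past the start and scored 35.9, rank 4057 of 8552. It overlapped an H3K4me3 region of 637 bp with 25 tags that was listed in SAHA alone. The other, chr1:108573860-108574454, scored 30.2, rank 8335.

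RefSeq promoters were found for 9 of the 10 members, 14 promoters in all. None was found for Pmaip1, so its promoter was not searched for any motif. The STAT core TTCCNGGAA, searched on both strands, occurred in 0 of them, and in 1.15% of all RefSeq promoters. The looser core TTCNNNGAA, which contains the first, also occurred in 0, against 8.30% of all promoters. The p53 half-site occurred in 1, that of Bax, against 8.36% of all promoters. These counts say only that the letters are not in these windows of 300 bases.

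H3K4me3 covered the start of all 10 members in both libraries. The background was high, with 85.2% of scored genes in SAHA and 84.2% in diluent having a region within 5 kb of a start. What set members apart from one another was the width of the mark and the number of extra regions around it. The start regions of 6 genes were at least 5 kb wide in both conditions, namely Bcl2l1, Mcl1, Bcl2a1a, Bcl2l11, Bbc3 and Pmaip1. Regions that wide stood at 10.9% of genes in SAHA and 7.08% in diluent. The median width over the members was 6404 bp in SAHA and 5762 bp in diluent, and over all genes with a region it was 2548 bp in SAHA and 2451 bp in diluent. In each library 5 of the 10 members were above the 95th percentile of width. Each of the 10 start regions carried the same score, 3100, in both lists, so the score does not rank them.

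**Figure D2:**
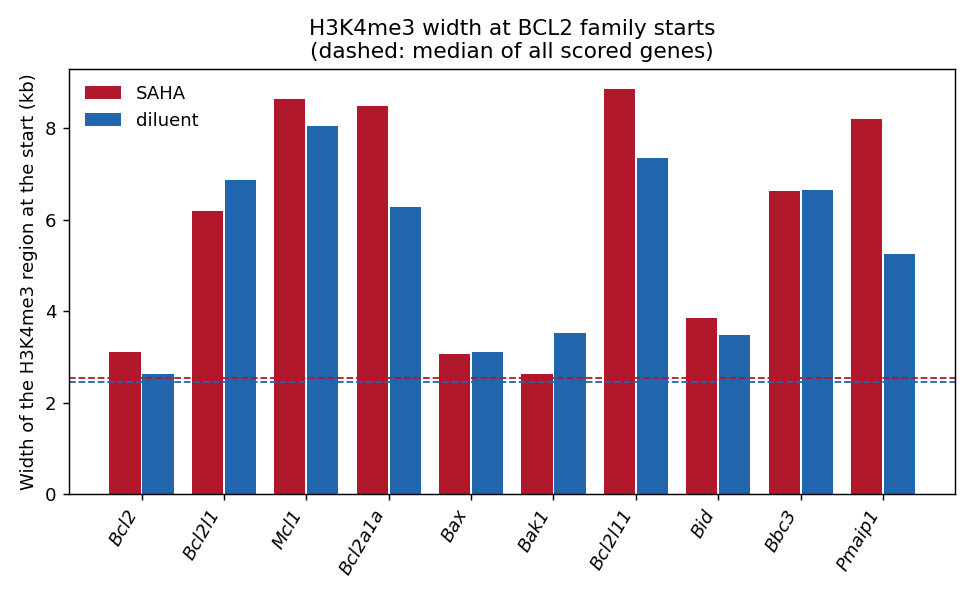
Width in kb of the H3K4me3 region at the start of each gene in SAHA (red) and diluent (blue), 1 library each, with dashed lines at the medians of all genes. Mcl1 and Bcl2l11 are wide in both, Pmaip1 and Bcl2a1a are wider in SAHA, and Bak1 is wider in diluent.

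Tag counts at the starts were compared in the 8 members whose SAHA and diluent regions matched 1 to 1, with ends identical to those of the single-library calls. Each count was scaled to the filtered tags of its library, and each log2 ratio of SAHA over diluent has an exact binomial 95% interval, which covers counting error only. The median log2 ratio was 0.14 over the 8, with a range of -0.06 to 0.48, and -0.05 over 10783 genes, whose quartiles were -0.17 and 0.12. Intervals lay above 0 for 5 of the 8 (20.6% of all genes) and below 0 for 0 (31.3%). An interval narrows as tags rise, and the members' median region was wider than that of all genes, so these shares are not a like comparison. Bcl2, 1 of the 5, had an interval that included 0 with all its regions within 5 kb, at 0.10 (-0.02 to 0.22). The other 2 members, Bcl2l1 and Bak1, which had several SAHA regions over 1 diluent region, both had intervals below 0 for the region over the start. Over all 10 start regions, whatever their ends, 5 intervals lay above 0 and 2 below, and the median was 0.06. None of the 8 passed 1.5-fold in either direction, where 6.19% of all genes were higher and 1.85% lower. None passed 2-fold either, where 2.3% of all genes were higher and 0.464% lower. Per kb of called region the median over the 8 was -0.04, and -0.13 over all genes, so the members' median was the higher per kb too. Per kb none of the 8 passed 1.5-fold, where 2.9% of all genes were higher and 1.48% lower. The region was wider in SAHA for 6 of the 8, against 72.5% of all genes.

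**Figure D3:**
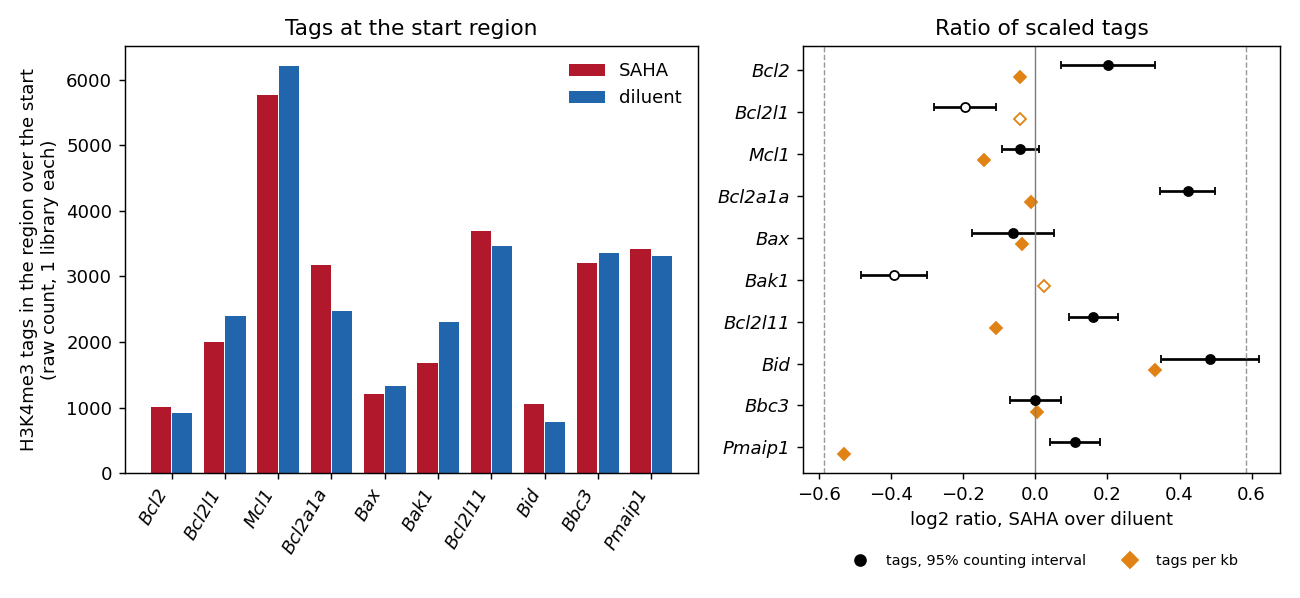
Left, raw H3K4me3 tags in the region over each start in SAHA (red) and diluent (blue), 1 library each; right, the log2 ratio of scaled tags with its counting interval (black) and of tags per kb (orange), with dashed lines at 1.5-fold. Bid and Bcl2a1a have the highest ratios, at 0.48 and 0.42; open symbols mark Bcl2l1 and Bak1, which had no 1 to 1 pair.

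Among the survival genes Bcl2a1a stood highest. It had 3176 tags in SAHA and 2479 in diluent, a log2 ratio of 0.42 (0.35 to 0.50) and -0.01 per kb, over regions of 8478 bp in SAHA and 6268 bp in diluent. The extra width lay mainly on the downstream side, by 1636 bp, with 574 bp upstream. A second region, 18.1 kb upstream, had 80 tags in SAHA and 46 in diluent, a log2 ratio of 0.86 (0.32 to 1.42), and 2 more regions within 5 kb upstream were listed in SAHA alone. At the other A1 copies the start region was 16341 bp wide in SAHA, where the list named it for the neighbouring gene Mthfs, and 9233 bp in diluent for Bcl2a1b, and 12194 bp in SAHA and 9388 bp in diluent for Bcl2a1d. For Bcl2a1c 1 SAHA region of 5350 bp lay over 2 diluent regions, 1 of 3056 bp over its start and 1 of 2410 bp downstream. The region over the start was thus wider in SAHA at every copy, but at Bcl2a1c the diluent list split the same ground in 2. Reads shared between copies would enter all of these values.

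Mcl1 held the most tags of the 10 members and the densest mark among them, and its interval included 0. It had 5763 tags in SAHA and 6207 in diluent, a log2 ratio of -0.04 (-0.09 to 0.01). Per kb and per 1000000 filtered tags that was 31.1 in SAHA and 34.3 in diluent, where the upper quartiles of all genes were 19.2 in SAHA and 21.7 in diluent. Bcl2 had 1009 tags in SAHA and 918 in diluent, a log2 ratio of 0.20 (0.07 to 0.33) and -0.04 per kb. Its second region, 0.66 kb upstream of the start, went the other way, with 148 tags in SAHA and 211 in diluent, a log2 ratio of -0.45 (-0.76 to -0.14). The summit over the Bcl2 start region lay 1520 bp past the start in SAHA and 420 bp past it in diluent. Bcl2l1, which encodes BCL-XL, had no 1 to 1 pair, since the SAHA list split off a piece of 813 bp at the downstream end. Its main region had 1996 tags over 6186 bp in SAHA and 2390 over 6878 bp in diluent, a log2 ratio of -0.19 (-0.28 to -0.11) and -0.04 per kb.

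The pore genes had lower tag sums in SAHA, with an interval that included 0 at Bax. Bax had 1212 tags in SAHA and 1323 in diluent, a log2 ratio of -0.06 (-0.17 to 0.05), over 3057 bp in SAHA and 3108 bp in diluent. Bak1 had 1676 tags over 2635 bp in SAHA and 2299 over 3513 bp in diluent, a log2 ratio of -0.39 (-0.48 to -0.30) but 0.02 per kb. Here the SAHA list carried 2 further regions directly downstream, without tag counts, so the Bak1 sums do not cover the same ground. At Bax the SAHA list had a region within 5 kb that was named for Ftl1, the ferritin light chain gene. It held 3726 tags in SAHA and 3612 in diluent, and in diluent it ended just outside the 5 kb. Counting it with Bax gave a log2 ratio of 1.97, since the region's edge fell within 5 kb in SAHA alone.

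Among the BH3-only genes Bid had the highest ratio of the 10 starts, both in tags and per kb. It had 1047 tags in SAHA and 783 in diluent, a log2 ratio of 0.48 (0.35 to 0.62). Of all genes 92.1% had a lower ratio. Per kb the ratio was 0.33, and the levels were 12.7 in SAHA and 10.1 in diluent per 1000000 filtered tags, both below the medians of all genes, 15.5 in SAHA and 17.0 in diluent. The caller's own fold enrichment at the Bid summit went the other way, at 10.7 in SAHA and 12.4 in diluent. That was not particular to Bid. Among the members with a 1 to 1 pair, fold enrichment at the start was lower in SAHA at all but Bbc3 (4.98 in SAHA and 4.56 in diluent). By tags and width in both H3K4me3 libraries, the genes nearest to Bid among 10782 were Egln3, Gprc5c and Sik1, at distances of 0.06, 0.14 and 0.15 on the log2 scale over 4 values.

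At Pmaip1 and Bcl2l11 the regions were wider in SAHA while the tag sums differed less. Pmaip1 had 3414 tags in SAHA and 3308 in diluent, a log2 ratio of 0.11 (0.04 to 0.18), over 8193 bp in SAHA and 5255 bp in diluent. Its ratio per kb was -0.53, and 2.37% of all genes had a lower one. Bcl2l11 had 3700 tags in SAHA and 3462 in diluent, a log2 ratio of 0.16 (0.09 to 0.23) and -0.11 per kb, over 8864 bp in SAHA and 7347 bp in diluent. Bbc3, which encodes PUMA and is another known p53 target, was level, with 3212 tags in SAHA and 3361 in diluent, a log2 ratio of -0.00 (-0.07 to 0.07), over 6621 bp in SAHA and 6643 bp in diluent.

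In the 3 members with the most added width, most of it lay on the downstream side of the start. The downstream edge reached 2662 bp further in SAHA at Pmaip1, 1636 bp at Bcl2a1a and 1510 bp at Bcl2l11, and the median over all genes was 93 bp. At the upstream edge the same genes differed by 276, 574 and 7 bp. At Bcl2a1a the SAHA region ended 608 bp past the end of the listed transcript. A reach of at least 1 kb further was found at 3.88% of all genes. The other 5 paired members reached 55 to 568 bp further, with Bax lowest and Bcl2 highest. An edge is where a caller stopped in 1 library, and its error was not measured.

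Several members also had more H3K4me3 regions in SAHA. The lists named 8 of the 10 members for more H3K4me3 regions in SAHA than in diluent, 0 for fewer and 2, Bid and Bbc3, for equal numbers. At 6 of the 8 the SAHA list held a region that overlapped no diluent region, while at Bcl2l1 and Bak1 all SAHA regions overlapped the 1 diluent region. Of all scored genes 21.6% had more and 7.85% fewer. In SAHA 11 of the 34 regions overlapped no diluent region, against 17.8% of that list, and in diluent 0 of 20 overlapped no SAHA region, against 5.37%. Most of the 11 were weak calls. All but 1 at Bcl2l11 (score 690) and 1 at Pmaip1 (242) scored 51.3 to 107, where the list's lowest score was 50 and its median 1072. Those of Bax and Mcl1 lay 255 and 475 bp from a diluent region. Counting only regions with a score of 100 or more left 6 members with more in SAHA (16.9% of genes), and so did an equal number of top regions per list (12.3%), both chosen after seeing the data.

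**Figure D4:**
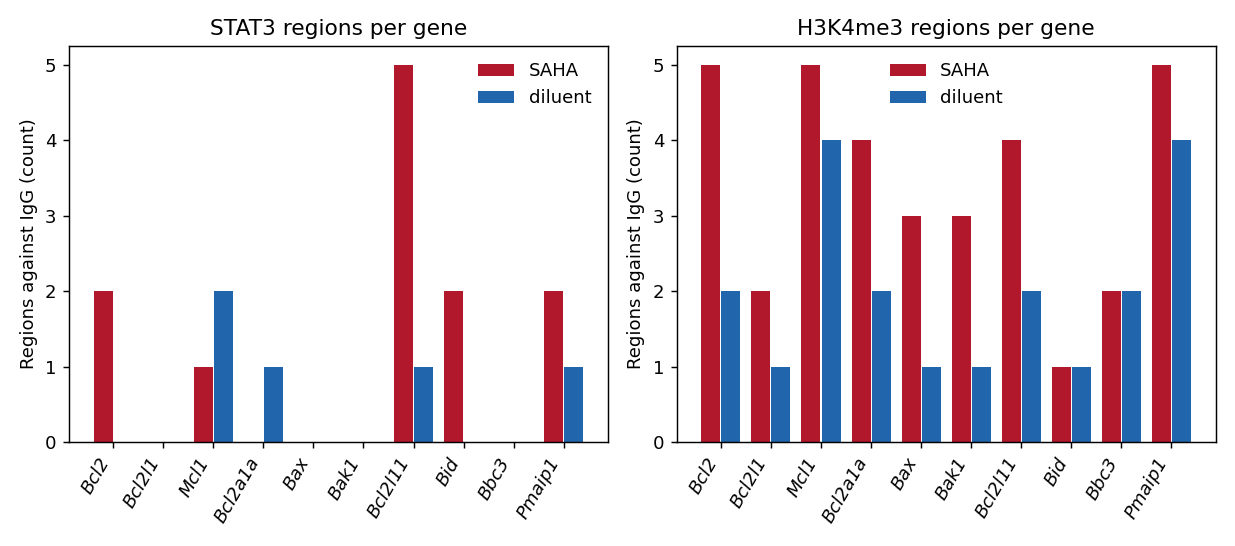
Number of STAT3 regions (left) and H3K4me3 regions (right) listed for each gene in SAHA (red) and diluent (blue), 1 library each. Bcl2l11 has the most STAT3 regions, 5 in SAHA and 1 in diluent, and Bcl2, Mcl1 and Pmaip1 have the most H3K4me3 regions in SAHA, at 5 each.

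The strongest of these SAHA-only regions lay downstream of Bcl2l11. It covered chr2:128015271-128016781, 62.7 kb past the nearest start and beyond the listed transcripts, and had 159 tags, a fold enrichment of 16.0 and a score of 690. The nearest diluent H3K4me3 region was 8989 bp away, and a SAHA STAT3 region lay 2641 bp from it. That STAT3 region, chr2:128019422-128020055, had a score of 36.7, rank 3705 of 8552. A weaker SAHA-only region lay 83.9 kb past the start with 34 tags, and a shared one at 52.6 kb had 42 tags in SAHA and 34 in diluent, a log2 ratio of 0.37 (-0.32 to 1.07). Bcl2 had 3 SAHA-only regions inside its long transcript, 18.8, 19.8 and 36.0 kb past the start, of which the first had 39 tags and the last 25. At Pmaip1 a SAHA-only region lay 17.2 kb past the start with a score of 242. Its region near 21 kb upstream, where diluent STAT3 was listed, held 107 tags as 1 region in SAHA, against 33 and 38 tags as 2 regions in diluent. These tags do not cover the same ground, since the widths were 1770 bp in SAHA and 600 and 749 bp in diluent. A shared Pmaip1 region 12.8 kb past the start had 200 tags in SAHA and 223 in diluent, a log2 ratio of -0.09 (-0.37 to 0.19). At Mcl1 the regions outside the start were weak in both lists, with scores of 51.3 to 179 in SAHA and 52.7 to 81.8 in diluent.

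Around the distance limit, the members just inside were an H3K4me3 region of Mcl1 in SAHA at 4327 bp and one of Pmaip1 in SAHA at 4366 bp. Just outside, among regions named for a member, were an H3K4me3 region of Mcl1 at 5198 bp and its STAT3 region at 5700 bp, both in diluent. The diluent H3K4me3 region named for Ftl1 also ended just outside the limit at Bax, as given above.

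The other genes of the family, a list of 16 of which 13 were scored, are given for comparison. STAT3 lay within 5 kb at 5 of the 13 in SAHA (18.3% of all scored genes) and at 2 in diluent (6.39%), and H3K4me3 at 12 of 13 in both (85.2% in SAHA and 84.2% in diluent). The 2 in diluent were Bcl2a1b and Bcl2a1d, which were also among the 5 in SAHA, with Bcl2l2, Hrk and Bnip3l. Bcl2l2, a survival gene, had 2 SAHA regions at its start with scores up to 41.5 and an H3K4me3 log2 ratio of -0.04 (924 tags in SAHA and 996 in diluent). Hrk, a BH3-only gene, had a SAHA STAT3 region scoring 30.7 and 64 H3K4me3 tags in SAHA against 38 in diluent, a log2 ratio of 0.82 (0.22 to 1.44). Bnip3l, a mitophagy receptor, had a SAHA STAT3 region scoring 43.3 and a log2 ratio of -0.11.

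Over the 8 of these genes with a pair the median log2 ratio was -0.11, with 1 past 1.5-fold higher (Hrk) and 2 past it lower, against 6.19% and 1.85% of all genes. The 2 lower were Bok, a pore-type member, with 42 tags in SAHA and 66 in diluent (-0.59), and Bcl2l14, with 243 and 445 tags in the same order (-0.81, and -0.01 per kb). Bmf, a BH3-only gene, had 1880 tags in SAHA and 1467 in diluent, a log2 ratio of 0.42 (0.32 to 0.52). The BH3-only gene Bad was at -0.11 and Bcl2l13 at -0.15. Bnip3 had no pair, and Bcl2l10 had a STAT3 region in SAHA only, 11.7 kb from its start, and no H3K4me3 within 5 kb.

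Genes that act beside the family were counted in the same way. Of 14 scored apoptosome and caspase genes, STAT3 lay within 5 kb of 1 in SAHA, the mitochondrial channel gene Vdac1 (score 77), and of 0 in diluent, against 18.3% of all scored genes in SAHA and 6.39% in diluent. Their median H3K4me3 log2 ratio was -0.11 and none passed 1.5-fold. The highest were the caspase genes Casp2 at 0.05 and Casp6 at 0.02, and the lowest were Aifm1 at -0.25 and Casp9 at -0.23. Of 16 genes for inhibitors of apoptosis, death receptors and p53 regulation, STAT3 lay near 6 in SAHA (Birc5, Birc6, Tradd, Traf2, Foxo3 and Mdm2) and near 2 in diluent (Cflar, score 39.6, and Traf2, 42.5), against the same shares of all scored genes. Their median over 13 pairs was 0.03. Fas, the death receptor that acts through Bid, had 2689 tags in SAHA and 1574 in diluent, a log2 ratio of 0.84 (0.75 to 0.93) and -0.01 per kb, the only one past 1.5-fold, which 6.19% of all genes passed upward and 1.85% downward. Tnfrsf10b, another death receptor, was at 0.55, and the lowest were Trp53 at -0.30 and Fadd at -0.26.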

How the data were processed

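BWA and the mm9 build are named in the submitters' processing notes. Per the file headers, FastQC 0.9 counted 38-base reads, and MACS 1.4.0rc2 called regions in each library with no control, keeping up to 2 duplicates of a tag and p-values up to 1e-05. In these deposited tables the authors give tag counts and a fold enrichment, which is a ratio over local background. The authors' lists against IgG give a score per region and 1 named gene, and their settings are not given in the sources used here, nor is the filter behind them. The score, fold enrichment and regions are the authors' values.

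The members and gene lists were chosen with earlier results of these data known. Distance to a start was taken from the region's nearest edge, positions were given by its midpoint, and coordinates are 1-based. A pair was 2 regions that overlapped 1 to 1, by at least 1 bp, with ends identical to single-library calls. Of the list regions, 109 STAT3 regions in SAHA, 68 in diluent, 22114 H3K4me3 regions in SAHA and 20244 in diluent had such ends. Tag ratios carry exact conditional binomial (Clopper-Pearson) 95% intervals, and the conditions were not compared by p-value. The intervals were run on simulated counts that held counting error only. That run checks the calculation and says nothing of variation between libraries or of region edges. Per kb values divide by each library's own region width. Genes were matched by symbol to RefSeq names, 87.3% of 17024 symbols, and genes outside the 10 were named by fixed rules: any family gene with a region, pathway genes with STAT3 within 5 kb or with the 2 highest or 2 lowest ratios, and the 3 genes most like the member with the largest ratio. Elane, Ciita, Itgax, Flt3, Mertk and Mthfs fall outside these rules and were named after their values were seen. One region number stood for 2 regions, which were kept apart, and 2 list entries named no gene. The files' exon structure was not used here. Alternatives were the score limit, the distance, equal list lengths, the overlap, the scaling and width. The software was Python 3.11.15 with scipy 1.17.1, numpy 2.4.6 and matplotlib 3.10.9.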

Additional observations from a re-analysis of the deposited data

How the results depend on the processing

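Near the starts, the STAT3 counts depended on the limits. In SAHA the 2 members became 1 with scores of 40 or more, 1 within 2 kb and 1 with as many top regions as the diluent list, Bid in each case. In diluent the 1 member became 0 within 2 kb and 2 within 10 kb. Counting only regions within 5 kb left 3 STAT3 regions in SAHA and 1 in diluent, and 20 H3K4me3 regions in SAHA and 11 in diluent. The median H3K4me3 log2 tag ratio over the members was -0.040 per kb and 0.14 when scaled to the median ratio of all pairs, where the main value was 0.14. Taking all 10 members, with the region over the start whatever its ends, gave 0.055, an alternative chosen after seeing the data. The other 25 counts stayed within 1.5 times of the main count. Several of these could not differ and are no check. H3K4me3 regions that covered every member's start scored above the score limit, so the score and distance limits could not change those counts. With 0 members past 1.5-fold, 0 could pass 2-fold. The 250 bases before the start lay within the 300 bases searched, which held 0 STAT cores. The count of start regions at least 5 kb wide set diluent beside SAHA and was not recomputed. Of the single-gene ratios and widths, 49 were unchanged or within their counting interval and 9 moved. Many of the 49 could not differ and are no check. The widths and the ratios of the single-library region over the start reused the same regions. So did most ratios over all regions within 5 kb. Per kb 8 moved, where Bcl2, Bcl2a1a, Bcl2l11 and Pmaip1 turned negative and Bak1 positive, none of them past 1.5-fold in either setting, as follows from the widths the tags were divided by. The remaining 1 was Bax, at 1.97 with all regions within 5 kb, since the Ftl1 region reached within that distance in SAHA alone. With 1 library per group no replicate could be left out. No paired analysis was possible because each group has 1 library. STAT3 tags at the members were not counted in the deposited tables, so depth could not be set beside those regions.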
